A study of Saccharomyces cerevisiae with 48 samples.

Results

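The genes that attach and extend mannose on yeast proteins were followed across 3 time courses of synchronized budding yeast, Saccharomyces cerevisiae. The 32 genes were chosen by name: the enzymes that supply activated mannose, the protein O-mannosyltransferases of the endoplasmic reticulum and the mannosyltransferases of the Golgi. Earlier results of these data were known when the list was made, so its shares beside those of all genes are descriptive. The list holds 32 of the 5449 genes measured, each read by 1 probe set, and every one was above background on all 48 arrays. The cdc28-4 strain (BF264-15DU background, mating type a) has a conditional allele of CDC28, the gene for the cyclin-dependent kinase Cdk1, and its labels give Cdk activity as absent. It was followed in 2 courses with an array every 20 min, 15 arrays in course 1 (10 to 290 min) and 18 in course 2 (10 to 350 min). The wild-type strain (BF264-15DU, mating type a, bar1) has Cdk activity and 1 course of 15 arrays, taken every 15 min between 15 and 225 min. All cultures were raised at 25 °C in the rich medium YEPD, small newborn daughter cells were separated by elutriation, and these entered YEPD already at 37 °C at 0 min. The strains therefore differ at BAR1 as well as at CDC28, while the temperature shift is common to both.

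Mannose enters these pathways as GDP-mannose, made in the cytosol from fructose 6-phosphate, and part of it is passed to the lipid carrier dolichol phosphate for use in the endoplasmic reticulum. There the Pmt proteins put the first mannose directly on serine or threonine, and in the Golgi the Ktr family and the alpha-1,3-mannosyltransferases lengthen that chain. Sugars on asparagine get a long mannose outer chain in the Golgi, started by Och1, extended by mannan polymerase complexes and branched by further enzymes, and the resulting mannoproteins form the outer layer of the cell wall. Wall and mannosylation genes are a classic class of budding yeast genes read around bud emergence, and MNN1 and PSA1 are textbook members of the group that peaks late in G1.

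Values are log2 intensities as the authors' processed arrays give them. Background, taken as the 95th percentile over probe sets for fission yeast, which the array also carries, averaged 337 in intensity and ran from 270 to 462 on single arrays, and array medians over all probe sets lay between 394 and 473. Arrays hold no counts, so their number limits the precision. The labelling kit changed with the strain, read in listing order, so a difference in level between the strains cannot be told apart from the kit. Only changes over time are set against each other, in which a constant offset cancels. An effect of the kit on the size of changes does not cancel, and it cannot be told apart from strain. In RNA quality probes, the log2 ratio of 3′ to 5′ signal of TDH1 was −0.01 to 0.54 on cdc28-4 arrays and 0.95 to 1.66 on wild-type arrays. All 5 markers of a cells (STE2, STE6, MFA1, MFA2, AGA2) were above background on all 33 cdc28-4 and all 15 wild-type arrays. Of the 4 alpha cell markers, SAG1 was above background on every array of both strains, MF(ALPHA)2 on 33 cdc28-4 and 0 wild-type arrays, MF(ALPHA)1 on 24 and 0, and STE3 on 31 and 3. Whether those transcripts bear on the mannosylation genes was not tested. BAR1 lay at 10.99 to 12.88 in cdc28-4 and at 7.38 to 7.69 in wild type, under background on all 15 arrays, as the bar1 genotype reads. The 170 min array of course 2 stood apart from its course 1 partner, with an SD of 0.315 between them over all genes, against 0.121 to 0.192 at the other shared times.

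**Figure D1:**
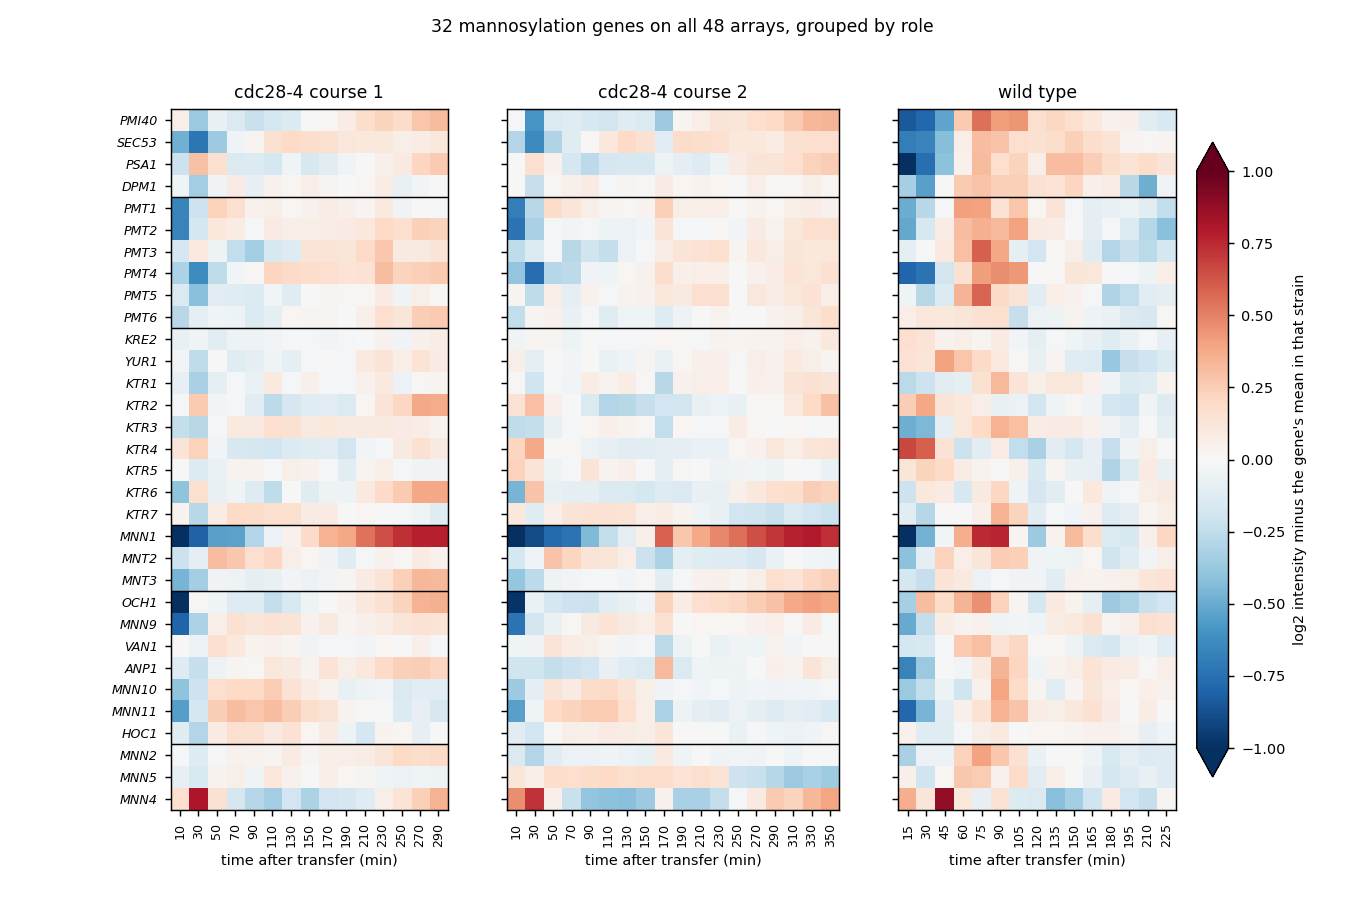
Each row is 1 of the 32 mannosylation genes and each column 1 of the 48 arrays in order of time, with cdc28-4 courses 1 and 2 on the left and wild type on the right; colour gives log2 intensity minus the gene's mean in that strain, and the scale ends at 1 in both directions. MNN1 climbs through both cdc28-4 courses, while in wild type the 10 genes of mannose supply and the O-mannosyltransferases are all highest between 60 and 105 min.

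Over the 15 times that both cdc28-4 courses share, 26 of the 32 genes changed with time in limma's F test at a threshold of 0.05 on the adjusted p. That test called 84.5% of all genes, so a change of some kind was the rule on these arrays. The genes that did not pass were VAN1 (adjusted p 0.0923), ANP1 (0.124), MNN5 (0.139), MNN2 (0.268), KRE2 (0.651) and KTR5 (0.676), all by limma. With the course as a block, VAN1 (0.0411), ANP1 (0.00213) and MNN2 (0.00303) passed limma's test too, and VAN1 also passed without the 170 min arrays (0.0222). That fit called 29 of the 32 genes (90.6%) and 92.8% of all genes. Among the 26 genes, DPM1 (0.112), PMT5 (0.0856), YUR1 (0.0677) and KTR1 (0.129) lost the call without the 30 min array of course 1, and PMT6 (0.0821 and 0.0651) without either 10 min array. YUR1 also lost it without the 230 min (0.0508) or the 270 min (0.0527) array of course 1. DPM1 (0.0533) and YUR1 (0.0761) were also lost after centring on the fission yeast probe sets, and KTR1 (0.067) after median centring. KRE2, a Golgi alpha-1,2-mannosyltransferase gene, had the smallest swing: it stayed between 12.73 and 12.91 in course 1 and between 12.79 and 12.94 in course 2. MNN1, which adds the terminal alpha-1,3-linked mannose, had the widest swing, 9.68 to 13.00 in course 1 and 9.77 to 13.01 in course 2. As a description, the profiles of the courses correlated over the 15 times with a median r of 0.823 over the 32 genes and 0.873 over all genes, and the r was 0.990 for MNN1 and −0.09 for KTR5. These points share the culture and the temperature shift.

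The early change, 90 min minus 10 min in cdc28-4, has 2 arrays on each side. MNN1 rose 4.35-fold, and OCH1, MNN9, MNN11, PMT1 and PMT2 each rose by more than 0.6 on the log2 scale. In all, 14 of the 32 genes rose (43.8%, where limma called 40.0% of all genes higher) and 3 fell (9.38%, where it called 29.7% lower). The share of risers was thus near that of the whole array, and the share of fallers below it. The median change was 0.08 over the 32 genes and 0.08 over all genes. From 30 to 90 min alone the changes were 0.48 (MNN1), −0.14 (OCH1), 0.36 (MNN9), 0.38 (MNN11), 0.30 (PMT1) and 0.23 (PMT2). The larger part of each of these rises thus lay between 10 and 30 min. Nothing in the labels says more than that these are replicate courses, so the p-values measure the spread between them.

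MNN1 (YER001W) had 11.92 and 11.78 at 90 min in courses 1 and 2, against 9.68 and 9.77 at 10 min. Both 90 min arrays were far above both 10 min arrays, and the change was 2.12 on the log2 scale (SE 0.109, 4.35-fold, limma adjusted p 1.47e-12). OCH1 (YGL038C), whose alpha-1,6-mannosyltransferase starts the outer chain, had 11.82 and 11.73 at 90 min, against 10.74 and 10.96 at 10 min, a change of 0.92 (SE 0.079, limma adjusted p 3.10e-09). At 30 min the arrays already read 11.95 and 11.88. MNN9 (YPL050C), the subunit common to both mannan polymerase complexes, had 11.77 and 11.73 at 90 min, against 10.84 and 10.90 at 10 min, with no overlap and a change of 0.88 (SE 0.063, limma adjusted p 2.17e-10). MNN11 (YJL183W) and MNN10 (YDR245W), subunits of the second complex, rose by 0.81 and 0.58. HOC1, in the same complex, rose by 0.22, a call lost without the 90 min array of course 1 and after centring on the fission yeast probe sets (limma adjusted p 0.0697 and 0.0858). VAN1 (0.07) and ANP1 (0.072), the remaining polymerase subunits, did not pass. Thus 5 of the 7 genes of the outer chain backbone rose and 0 fell, with a median of 0.58. Of all genes, limma called 40.0% higher and 29.7% lower. The other alpha-1,3-mannosyltransferase genes also rose, MNT3 by 0.37 and MNT2 by 0.34.

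Among the 6 genes for O-mannosyltransferases of the endoplasmic reticulum, 3 rose and 0 fell, with 40.0% and 29.7% of all genes. PMT1 (YDL095W) and PMT2 (YAL023C), whose products pair as the main transferase complex, moved alike. PMT1 had 12.51 and 12.53 at 90 min, against 11.80 and 11.77 at 10 min, a change of 0.73 (SE 0.053), and PMT2 had 12.71 and 12.70, against 12.06 and 11.99, a change of 0.68 (SE 0.091). None of these arrays overlap between the times, and limma's adjusted p was 2.17e-10 for PMT1 and 1.53e-06 for PMT2. PMT4, whose product works as a homodimer, rose by 0.34, though without the 90 min array of course 1 or the 10 min array of course 2 its limma adjusted p was 0.0533 and 0.0627. PMT3 (−0.058), PMT5 (0.011) and PMT6 (0.18) did not pass, and PMT6 passed limma's test with the course as a block (adjusted p 0.0348).

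In mannose supply, SEC53 (phosphomannomutase) rose by 0.41, with 13.23 and 13.21 at 90 min, against 12.72 and 12.90 at 10 min. PMI40 (phosphomannose isomerase, the entry step) had 11.94 and 12.00 at 90 min, against 12.23 and 12.15 at 10 min, a change of −0.22 (limma adjusted p 0.0457). That fall is a weak one: leaving out any 1 of the 4 arrays ended the call (limma adjusted p 0.0644 to 0.193), and 90 and 110 min minus 10 and 30 min gave 0.04. PSA1 (GDP-mannose pyrophosphorylase, −0.09) and DPM1 (dolichol phosphate mannose synthase, 0.02) did not pass. The largest fall was that of MNN4 (YKL201C), a positive regulator of mannosyl phosphate transfer to the sugar chains, with 10.72 and 10.61 at 90 min, against 11.17 and 11.47 at 10 min (change −0.65, SE 0.115, limma adjusted p 4.45e-05). MNN4 was highest at 30 min in both courses (11.82 and 11.73), so the fall followed a peak.

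The Ktr family was mixed. KTR6 (the phosphomannosyltransferase) and KTR3 rose by 0.32 and 0.30, and KTR4 fell, with 12.12 and 12.23 at 90 min, against 12.41 and 12.50 at 10 min (change −0.28, SE 0.069, limma adjusted p 0.00117). KTR6 read 11.74 and 11.87 at 30 min, above both its 10 and its 90 min arrays: 90 and 110 min minus 10 and 30 min gave −0.05, and without the 10 min array of course 2 the limma adjusted p was 0.0586. KRE2 (0.03), YUR1 (−0.063), KTR1 (0.034), KTR2 (−0.2), KTR5 (−0.03) and KTR7 (0.093) did not pass, and neither did the branching genes MNN2 (0.067) and MNN5 (0.056). KTR2 passed as a fall after median centring (−0.27), after quantile normalization (−0.28) and as 90 and 110 min minus 10 and 30 min (−0.38). With those times PSA1 (−0.24) and PMT3 (−0.12) passed as falls and DPM1 (0.16), PMT5 (0.16), KTR1 (0.18) and KTR7 (0.22) as rises, and YUR1 (−0.14) passed as a fall after quantile normalization. The 3′ to 5′ ratio of SPT15 averaged 0.95 at 90 min and 0.89 at 10 min. That of TDH1 averaged 0.25 and 0.09, and that of ACT1 0.28 and 0.32. Their part in these changes was not tested.

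The late change, 270 and 290 min minus 90 and 110 min in cdc28-4, has 4 arrays on each side. MNN1 rose again, by 1.98-fold, OCH1, MNN4 and the genes for the first and last steps of GDP-mannose synthesis rose, and the polymerase subunit genes MNN10, MNN11 and HOC1, which had risen early, fell. Of the 32 genes, 12 rose (37.5%, with 27.2% of all genes called higher by limma) and 6 fell (18.8%, with 29.1% called lower). The median change was 0.096 over the 32 genes and −0.02 over all genes. With the course as a block limma called 23 of the 32 genes (71.9%) and 64.3% of all genes. The 4 late and 4 earlier arrays did not overlap for 13 genes in the higher direction and 7 in the lower, where 27.1% and 30.4% of all genes did not overlap in those directions. This comparison shares its 90 min arrays with the early one, so opposite signs in the early and late changes are not independent.

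MNN1 had 12.99 and 13.00 in course 1 and 12.86 and 12.93 in course 2 at 270 and 290 min, against 11.92 and 12.16 in course 1 and 11.78 and 11.98 in course 2 at 90 and 110 min. The sets are separated by more than the spread within either, and the change was 0.98 (SE 0.077, 1.98-fold, limma adjusted p 4.24e-09). In course 1 the level was higher at every later time point sampled, and in course 2 likewise from 190 min to 330 min, with the 170 min array above its neighbours at 12.81. MNT3 rose by 0.27, 0.41 in course 1 and 0.13 in course 2. MNT2 went the other way, with 10.10, 10.06, 9.85 and 9.95 late, against 10.19, 10.23, 10.15 and 10.14 earlier. Its change of −0.19 lost its call without any 1 of 4 arrays (limma adjusted p 0.0704 to 0.153) and after centring on the fission yeast probe sets (0.091).

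OCH1 had 12.29, 12.30, 12.20 and 12.24 late, against 11.82, 11.70, 11.73 and 11.83 earlier, 2 sets that do not overlap. The change was 0.49 (SE 0.056, limma adjusted p 5.11e-07); between 30 and 150 min it had ranged over 11.70 to 11.95 in both courses. MNN11 had 11.58, 11.50, 11.58 and 11.53 late, against 11.94, 11.97, 11.92 and 11.92 earlier, and fell by 0.39 on the log2 scale (SE 0.068, limma adjusted p 8.33e-05). MNN10 fell by 0.28, with all 4 late arrays (11.03 to 11.11) under all 4 earlier ones (11.33 to 11.40). HOC1 fell by 0.13, a call lost without any 1 of 4 arrays (limma adjusted p 0.0555 to 0.101) and after centring on the fission yeast probe sets (0.215). MNN9 (−0.025), VAN1 (−0.031) and ANP1 (0.16) did not pass, and ANP1 passed as a rise with the course as a block (limma adjusted p 0.0217). The outer chain backbone thus holds 1 gene that rose and 3 that fell of 7, with 27.2% and 29.1% of all genes.

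MNN4 had 11.24 and 11.35 in course 1 and 11.10 and 11.27 in course 2 late, against 10.72, 10.66, 10.61 and 10.60 earlier. The sets do not overlap, the change was 0.59 (SE 0.081, limma adjusted p 4.72e-06); at 10 min the courses had read 11.17 and 11.47. MNN5, which adds the second branch mannose, had 11.28 and 11.26 in course 1 and 11.09 and 11.03 in course 2 late, against 11.28 and 11.42 in course 1 and 11.50 and 11.51 in course 2 earlier. Its change of −0.26 (limma adjusted p 0.00796) came mainly from course 2, which read 11.46 at 230 min and 11.11 at 250 min and fell by 0.44, while course 1 differed by −0.08. At 290 min minus 90 min alone it missed the threshold (limma adjusted p 0.0846). MNN2, which adds the first branch mannose, had a change of 0.094 and passed only with the course as a block (limma adjusted p 0.0409).

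In mannose supply, PMI40 had 12.44, 12.48, 12.33 and 12.36 late, against 11.94, 11.99, 12.00 and 11.98 earlier (change 0.43, SE 0.067, limma adjusted p 2.25e-05). PSA1 had 13.04, 13.08, 12.95 and 12.95 late, against 12.69, 12.65, 12.56 and 12.66 earlier (change 0.37, SE 0.055, limma adjusted p 1.26e-05). Neither gene's late arrays overlap the earlier ones, and both kept climbing to 350 min in course 2, PMI40 to 12.50 and PSA1 to 13.08. In course 1 PSA1 had been highest at 30 min (13.12), above its late arrays. SEC53 (0.02) and DPM1 (0.006) were nearly level, with 13.28 to 13.31 late for SEC53, against 13.21 to 13.35 earlier. Of the O-mannosyltransferase genes, PMT3 rose by 0.33 and PMT6 by 0.23, the second by 0.36 in course 1 and 0.10 in course 2. PMT1 (−0.042), PMT2 (0.15), PMT4 (0.12) and PMT5 (0.099) did not pass. With the course as a block PMT2, PMT4 and PMT5 passed as rises (limma adjusted p 0.00288, 0.0261 and 0.0262). That fit called 64.3% of all genes.

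In the Ktr family 4 of 9 genes rose and 1 fell, where limma called 27.2% of all genes higher and 29.1% lower. KTR6 had 11.97, 11.97, 11.69 and 11.76 late, against 11.46, 11.33, 11.48 and 11.44 earlier, a change of 0.42 (SE 0.073, limma adjusted p 7.65e-05). KTR2 rose by 0.40, KTR4 by 0.22 and YUR1 by 0.13. The rises of KTR6 and KTR2 were larger in course 1 (0.58 and 0.57) than in course 2 (0.26 and 0.23). KTR4 had been highest at 30 min in both courses (12.51 and 12.66). KTR2 (10.16) and KTR6 (11.87) were highest at 30 min in course 2, but at 270 and 290 min in course 1. YUR1 lost its call without any 1 of 3 arrays (limma adjusted p 0.0598 to 0.0744). KTR7 fell, with 10.97, 10.88, 10.80 and 10.78 late, against 11.19, 11.16, 11.15 and 11.15 earlier (change −0.30, SE 0.048, limma adjusted p 2.53e-05). KRE2 (0.071), KTR1 (−0.002), KTR3 (−0.053) and KTR5 (−0.082) did not pass. The 3′ to 5′ ratio of SPT15 was 0.99 to 1.20 on the late arrays, against 0.87 to 1.02 on the earlier ones. That of ACT1 was 0.30 to 0.43, against 0.21 to 0.33, and that of TDH1 0.08 to 0.25, against 0.14 to 0.54. Their part in these changes was not tested.

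**Figure D2:**
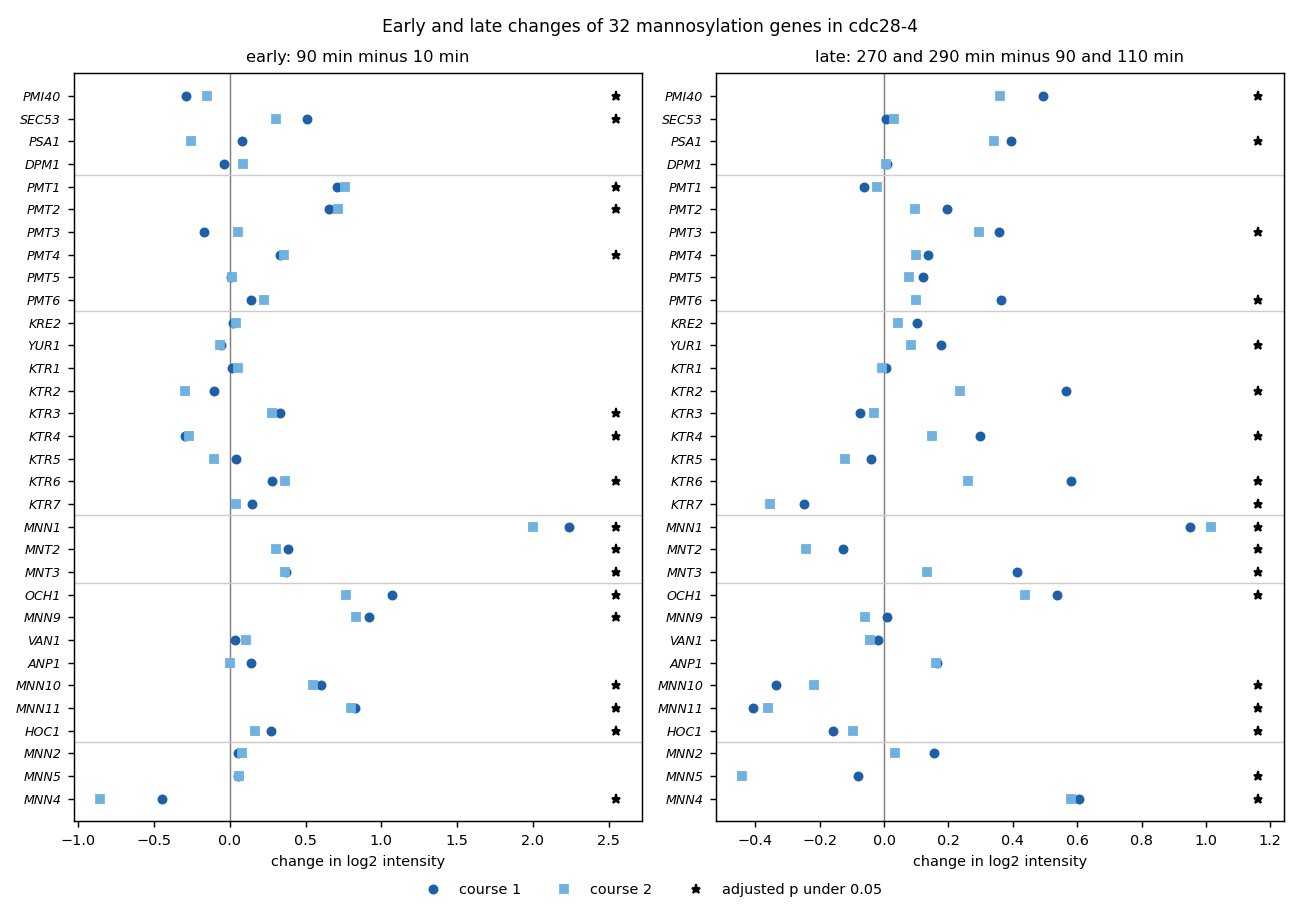
Change in log2 intensity of each gene in cdc28-4 course 1 (circles) and course 2 (squares), at left 90 min minus 10 min and at right 270 and 290 min minus 90 and 110 min; a star marks genes past the threshold of 0.05 on limma's adjusted p. MNN1 has the largest rise in both panels (2.12 and 0.98), MNN10 and MNN11 are right of 0 in the left panel and left of it in the right panel, and MNN5 is the gene whose late fall lies mostly in 1 course.

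The wild-type course shows when the same genes are highest in cycling cells. From 45 min on, the highest array was the 75 min one for 9 of the 32 genes (PMI40, SEC53, PSA1, DPM1, PMT3, PMT5, OCH1, VAN1 and MNN2) and the 90 min one for 13. Those at 90 min were PMT4, PMT6, KTR1, KTR3, KTR7, MNN1, MNT2, ANP1, MNN10, MNN11, HOC1, KTR6 and KRE2. PMT1 and MNN5 were highest at 60 min, PMT2 at 105 min, and YUR1, KTR2, KTR4, KTR5 and MNN4 at 45 min, the first time in that search. MNN9 and MNT3 were instead highest at 210 and 225 min. Over the whole course, KRE2 (13.11) and KTR4 (12.87) were highest at 15 min, and KTR2 (10.36) and KTR5 (10.34) at 30 min. Each time has 1 wild-type array, so these are readings with no replicate check. The same count was not made over all genes, so these times are not shown to be particular to the 32. MNN1 read 9.60 at 15 min, 11.87 at 75 min, 11.89 at 90 min and 10.77 at 120 min, then 11.45 at 150 min and 10.97 at 195 min. PMT3 read 10.64 at 15 min, 11.33 at 75 min, 10.55 at 120 min, 10.80 at 150 min and 10.44 at 180 min. Both genes thus had a higher first and a lower second maximum.

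**Figure D3:**
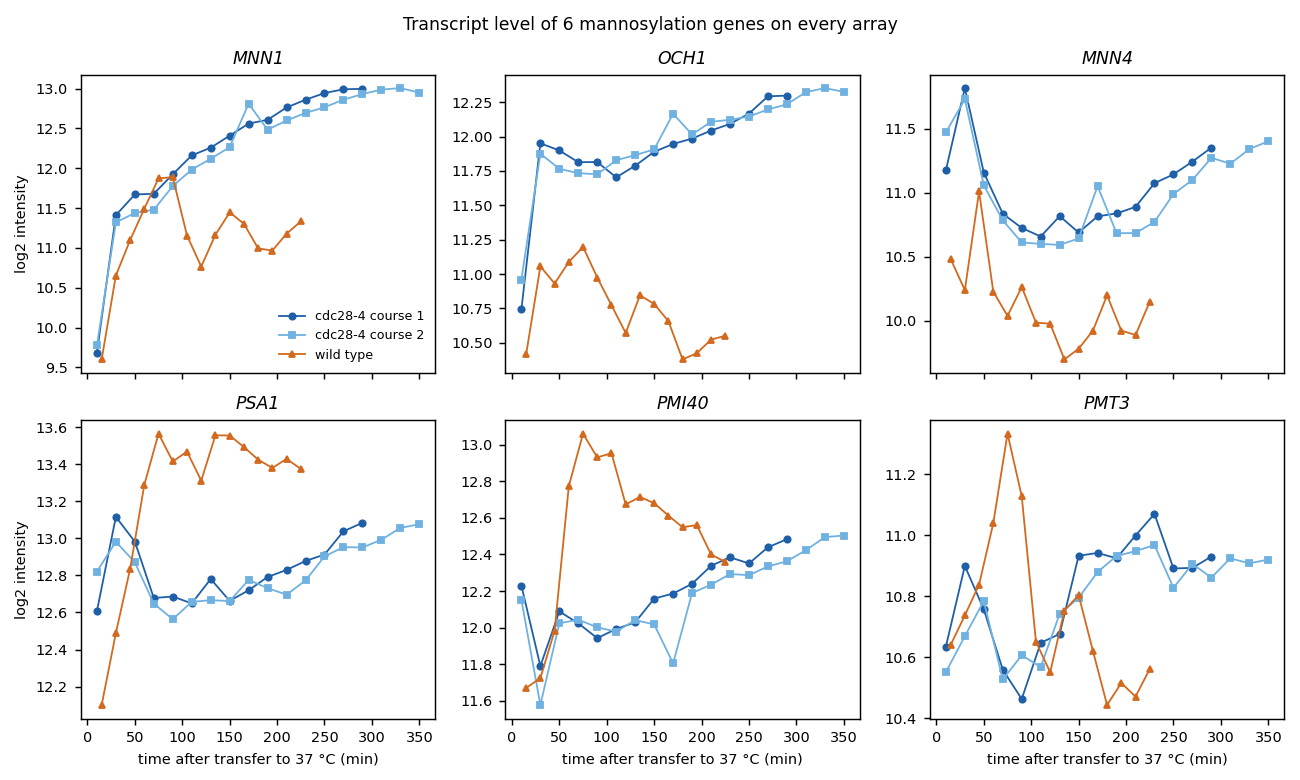
Log2 intensity of MNN1, OCH1, MNN4, PSA1, PMI40 and PMT3 against time after transfer to 37 °C, 1 point per array, for cdc28-4 course 1 (circles), cdc28-4 course 2 (squares) and wild type (triangles). In wild type PSA1, PMI40 and PMT3 are highest at 75 min, while in cdc28-4 PSA1 and PMT3 are near their lowest at 70 to 90 min.

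To ask whether the time courses of the strains differ, the 4 times that both share (30, 90, 150 and 210 min) were tested for an interaction of strain and time. In limma's F test 10 of the 32 genes passed (31.2%), near the 33.8% of all genes. They were PSA1, PMT3, DPM1, MNN1, PMI40, OCH1, YUR1, MNN4, PMT2 and KTR1. With the course as a block 18 genes passed, the additional ones being PMT4, PMT5, PMT6, KTR3, ANP1, MNN10, MNN11 and MNN2 (limma adjusted p 0.000512 to 0.0493). That is 56.2% of the 32 genes, where the same fit called 50.3% of all genes. KTR1 lost its call without any 1 of 3 cdc28-4 arrays, and PMT2 without the 210 min array of course 1 (limma adjusted p 0.0577). After centring on the fission yeast probe sets PMT2 (0.0811) and KTR1 (0.215) did not pass. The spread in these tests comes from the cdc28-4 pairs and is assumed for the single wild-type arrays.

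Between 30 and 90 min, several genes rose more in wild type than in cdc28-4, led by mannose supply. In cdc28-4 16 of the 32 genes rose and 6 fell (31.4% of all genes were called higher and 28.6% lower), and in wild type 20 rose and 2 fell (30.2% and 25.8%). The difference of the changes, cdc28-4 minus wild type, was called lower for 8 of the 32 genes (25%, against 10.8% of all genes) and higher for 0 (8.48% of all genes) by limma. At an unadjusted p under 0.05, limma had 1 gene higher and 14 lower, and KTR5 was called higher when the 30 min array of course 2 was left out. The median difference was −0.23 over the 32 genes and 0.02 over all genes. Thus 3 of 4 genes of mannose supply were called lower, and 1 gene each of the O-mannosyltransferases, the Ktr family, the alpha-1,3-transferases, the outer chain backbone and the branch and phosphate genes.

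PSA1 (YDL055C) had 12.69 and 12.56 at 90 min in cdc28-4, against 13.12 and 12.98 at 30 min, and 13.41 at 90 min in wild type, against 12.49 at 30 min. It fell in both cdc28-4 courses and rose in wild type, and the changes differed by −1.35 (SE 0.134, limma adjusted p 7.99e-07). MNN4 likewise fell in cdc28-4, by 1.09 in course 1 and by 1.12 in course 2, while the wild-type arrays read 10.26 (90 min) and 10.24 (30 min), so that the strains' changes differed by −1.13 (SE 0.199, limma adjusted p 0.000504). The wild-type MNN4 maximum of 11.01 lay at 45 min, between the times compared. PMI40 had 11.94 and 12.00 at 90 min in cdc28-4, against 11.79 and 11.58 at 30 min, and in wild type 12.93 against 11.72. All 3 courses moved up, the wild-type course by 1.21, and the difference was −0.92 (SE 0.163, limma adjusted p 0.000553).

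MNN1 changed by 0.48 in cdc28-4 and by 1.23 in wild type, a difference of −0.75 (SE 0.188, limma adjusted p 0.00832). With the mean of 75 and 105 min in place of the wild-type 90 min array that call was lost (−0.38, limma adjusted p 0.129). PMT3 (YOR321W) fell in cdc28-4, by 0.44 in course 1 and 0.06 in course 2, and rose by 0.39 in wild type, a difference of −0.64 (SE 0.125, limma adjusted p 0.00130). DPM1 (YPR183W) rose by 0.29 in cdc28-4 and by 0.78 in wild type, a difference of −0.49 (SE 0.102, limma adjusted p 0.00203). KTR3 (−0.48) and MNN10 (−0.31) were the remaining calls, and each was lost without single cdc28-4 arrays (limma adjusted p 0.0576 to 0.104). With the mean of 75 and 105 min in place of the wild-type 90 min array, MNN10 was at −0.02 (limma adjusted p 0.888), so its difference rests on that array. With the mean of 15 and 45 min in place of the wild-type 30 min array, DPM1 (−0.11) and KTR3 (−0.32) lost their calls. After centring on the fission yeast probe sets KTR3 (−0.39) and MNN10 (−0.22) lost theirs, and MNN10 (−0.30) also after median centring. With the course as a block PMT4 (−0.52), KTR6 (−0.44), ANP1 (−0.59) and MNN11 (−0.43) were called lower as well (limma adjusted p 0.00127, 0.0315, 0.00459 and 0.0394).

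The remaining differences between 30 and 90 min did not pass: SEC53 (−0.25), PMT1 (−0.12), PMT2 (−0.25), PMT5 (−0.18), PMT6 (−0.085), KTR1 (−0.27), KTR7 (−0.27), MNT2 (−0.13), OCH1 (−0.062), VAN1 (−0.21), MNN2 (−0.13) and MNN5 (−0.13) below 0, and KRE2 (0.04), YUR1 (0.15), KTR2 (0.051), KTR4 (0.11), KTR5 (0.30), MNT3 (0.031), MNN9 (0.17) and HOC1 (0.12) above it. Of the 32 genes, 24 thus had a difference below 0. Some of these depend on single wild-type arrays: with the mean of 15 and 45 min for 30 min OCH1 (−0.45) and YUR1 (0.30) passed, and so did KTR6 (−0.60) and MNN11 (−0.42). With the mean of 75 and 105 min for 90 min PMT1 (−0.31), VAN1 (−0.32) and KTR4 (0.37) passed. The 3′ to 5′ ratio of TDH1 was higher at 90 than at 30 min in both strains, 0.14 to 0.37 at 90 min against 0.01 to 0.09 at 30 min in cdc28-4, and 1.66 against 1.07 in wild type. Its part in the differences was not tested.

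A later interval was compared as well. It was chosen after the profiles were seen, and it shares the 90 min arrays, the single wild-type one included, with the change from 30 min, where they count with the opposite sign, so opposite signs in these comparisons are partly built in. It is the change between a window around 90 min and one around 210 min, 190, 210 and 230 min minus 70, 90 and 110 min in cdc28-4 (6 arrays each), set against 195, 210 and 225 min minus 75, 90 and 105 min in wild type (3 arrays each). The earlier wild-type window covers the times at which most of the 32 genes were highest: 9 at 75 min, 13 at 90 min and 1 at 105 min. Falls in wild type and strain differences above 0 are thus partly set by the choice of window. The counts and p-values for this interval describe it and are no independent test. Across that interval 20 of the 32 genes fell in wild type and 0 rose (19.0% of all genes were called lower and 22.4% higher), while in cdc28-4 8 rose and 5 fell (22.7% higher and 28.3% lower). In wild type 2 genes were higher at limma's unadjusted p under 0.05. The difference of the changes was called higher by limma for 18 of the 32 genes (56.2%, against 21.8% of all genes) and lower for 1 (3.12%, against 27.8%). Its median was 0.23 over the 32 genes and −0.03 over all genes. All 4 genes of mannose supply and all 6 O-mannosyltransferase genes were among the 18. The Ktr family gave 4 of 9, the outer chain backbone 2 of 7 and the other roles 1 of 3 each.

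MNN1 had 12.48 to 12.86 in the later window (median 12.65) and 11.48 to 12.16 in the earlier one (median 11.85) in cdc28-4, and in wild type 10.97, 11.18 and 11.33, against 11.87, 11.89 and 11.15. It rose in both cdc28-4 courses with no overlap of the windows, while the wild-type arrays overlap through the 105 min value. The difference was 1.31 (SE 0.109, 2.49-fold, limma adjusted p 1.93e-08). PMT3 had a median of 10.96 (10.92 to 11.07) in the later window and 10.56 (10.46 to 10.65) in the earlier one in cdc28-4, and in wild type 10.47 to 10.56, against 10.65 to 11.33. The windows did not overlap in either strain and moved in opposite directions, by 0.41 and −0.52, which gives 0.93 (SE 0.072, limma adjusted p 8.45e-09). OCH1 had a median of 12.07 (11.99 to 12.12) in the later window and 11.77 (11.70 to 11.83) in the earlier one in cdc28-4, and in wild type 10.42 to 10.55, against 10.77 to 11.20. The difference was 0.77 (SE 0.079, limma adjusted p 2.58e-07), again with opposite directions.

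PMI40 rose by 0.28 in cdc28-4 and fell by 0.54 in wild type, a difference of 0.82 (SE 0.094, limma adjusted p 1.08e-06). In wild type it had 12.36 to 12.56 in the later window, against 12.93 to 13.06. DPM1 differed little in cdc28-4 (0.0022) and fell by 0.52 in wild type. PMT1, PMT2, PMT4 and PMT5 likewise fell in wild type, while in cdc28-4 PMT5 rose by 0.14 and the changes of PMT4 (0.15), PMT2 (0.054) and PMT1 (−0.02) did not pass. PMT2 had 11.86 to 12.15 in wild type in the later window, against 12.61 to 12.69, a difference of 0.70 between the strains. The differences were 0.60 for PMT5, 0.59 for PMT4, 0.38 for PMT1 and 0.24 for PMT6. SEC53 (0.35), MNN2 (0.43), YUR1 (0.40), KTR3 (0.32) and KTR1 (0.31) were also called, and so were PSA1 (0.22), VAN1 (0.21) and KRE2 (0.13). PSA1, PMT6, VAN1 and KRE2 lost their calls without single arrays and after centring on the fission yeast probe sets, KRE2 without any 1 of 14 of the 18 arrays.

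MNN9 was the gene called lower (−0.21, SE 0.063, limma adjusted p 0.0108), with a cdc28-4 change of −0.08 and a wild-type change of 0.13. MNN10 (−0.05), MNN11 (−0.07), HOC1 (−0.05), MNT2 (−0.021) and KTR7 (0.035) did not differ past the threshold, and all 5 fell in cdc28-4. MNT3 (−0.043), KTR2 (0.19), KTR4 (−0.071), KTR5 (0.032), KTR6 (0.15), ANP1 (0.24), MNN5 (0.23) and MNN4 (0.23) did not pass either. With the course as a block ANP1 and MNN5 passed (limma adjusted p 0.0199 and 0.0495). That fit called 21 of the 32 genes (65.6%) and 58.4% of all genes. After median centring ANP1, MNN5 and MNN4 passed as higher (limma adjusted p 0.0459, 0.0368 and 0.0287). MNN4 also passed after quantile normalization (limma adjusted p 0.0376). With 210 min minus 90 min alone, 13 of the 32 genes were called higher and 0 lower, where 11.2% and 13.5% of all genes were. PSA1, PMT1, KRE2, KTR3, MNN9 and VAN1 did not pass with these times. Leaving out any 1 of the 18 arrays left 14 to 18 called higher. The 3′ to 5′ ratio of SPT15 averaged 0.98 later and 0.95 earlier in cdc28-4, and 1.46 later and 1.41 earlier in wild type. That of TDH1 averaged 0.20 later and 0.25 earlier in cdc28-4, and 1.48 and 1.53 in wild type. For ACT1 the averages were 0.23 and 0.26 in cdc28-4, and 0.49 and 0.48 in wild type.

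**Figure D4:**
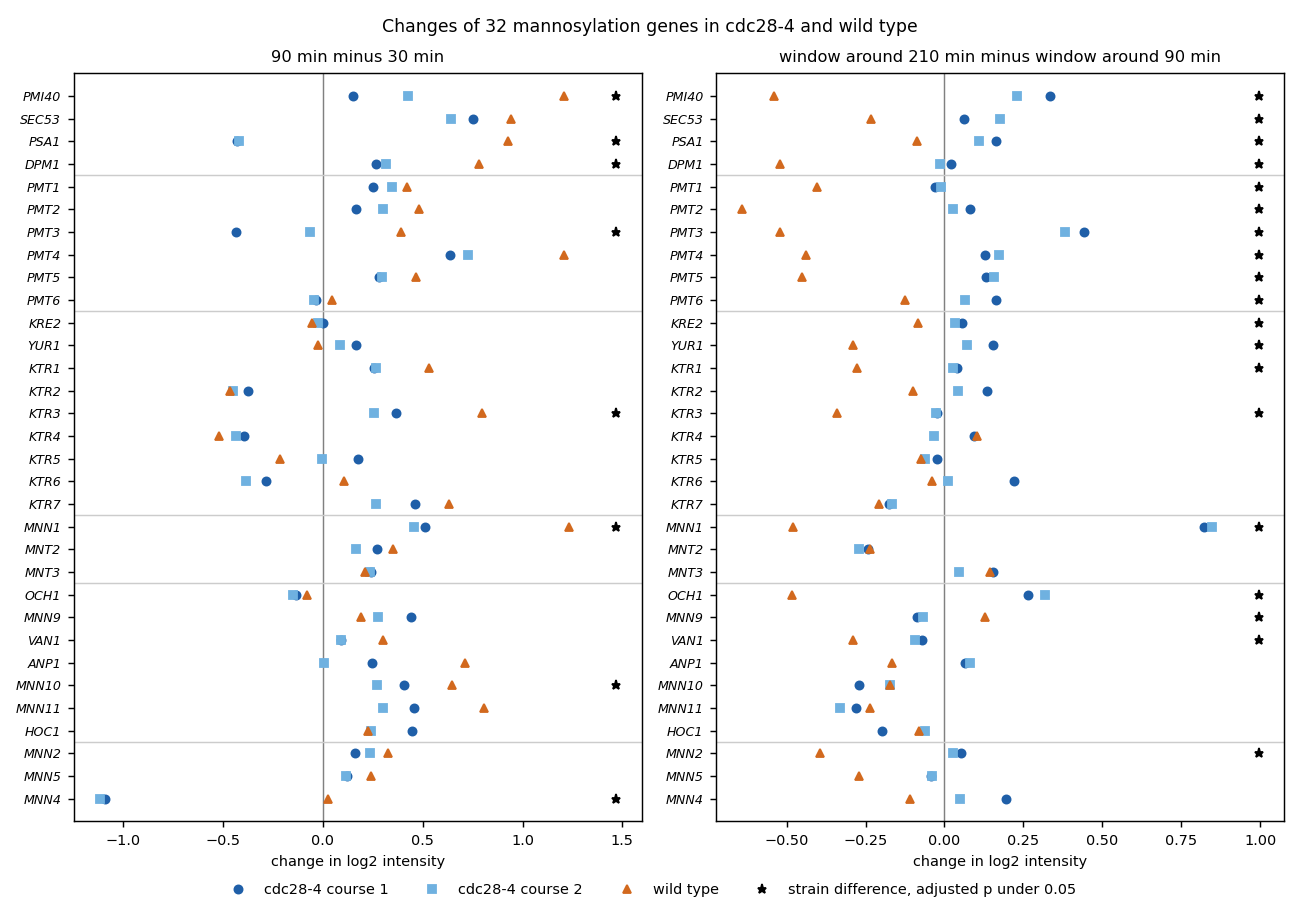
Change in log2 intensity of each gene in cdc28-4 course 1 (circles), cdc28-4 course 2 (squares) and wild type (triangles), at left 90 min minus 30 min and at right the window around 210 min minus the window around 90 min; a star marks a difference between the strains past the threshold of 0.05 on limma's adjusted p. At left the wild-type points lie to the right for PSA1, PMI40 and MNN4, and at right they lie to the left for all 10 genes of mannose supply and the O-mannosyltransferases.

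Other genes of protein glycosylation give the setting. Of 46 listed, 44 were measured, covering lipid-linked oligosaccharide assembly, the oligosaccharyltransferase, glycan trimming, Golgi support and GPI anchor mannosylation. In the early change 27 rose and 3 fell (61.4% and 6.82%, with 40.0% and 29.7% of all genes), with a median of 0.30. ALG14 (0.96), part of the transferase for the second sugar of the lipid-linked chain, and SEC59 (0.87), dolichol kinase, had the largest rises, and PBN1 (−0.83), for GPI anchor mannosylation, and YND1 (−0.51), a Golgi apyrase, the largest falls. In the late change 13 rose and 9 fell (29.5% and 20.5%, with 27.2% and 29.1% of all genes), from ALG14 (1.06) and SRT1 (0.55) down to ALG3 (−0.59) and CAX4 (−0.61). VRG4, the Golgi GDP-mannose transporter, rose late by 0.54. From 30 to 90 min the difference between the strains was called higher for 4 and lower for 6 (9.09% and 13.6%, with 8.48% and 10.8% of all genes), with ALG2 (−0.78) and CWH41 (−0.76) lowest. Over the windows it was called higher for 27 and lower for 4 (61.4% and 9.09%, with 21.8% and 27.8% of all genes), led by ALG14 (1.05) and ALG7 (0.82), with RER2 (−0.42) and VPS74 (−0.31) lowest, and 26 of these 44 genes fell in wild type while 4 rose (59.1% and 9.09%, with 19.0% and 22.4% of all genes). The oligosaccharyltransferase gave 7 higher of 9.

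Periodicity was tested for all genes with 1 shared period per strain, taken from 65 cell cycle genes that are not among the 32. In wild type the period was 82 min, and limma called 3 genes (0.0551%) and 0 of the 32, of which 7 had an unadjusted p under 0.05. These 7 were PMT5, PMT3, YUR1, SEC53, DPM1, OCH1 and PSA1, with limma adjusted p of 0.272 to 0.435 and fitted peaks at 58.7 to 74.2 min. CLN2, a G1 cyclin gene among the timing genes, did not pass either (limma adjusted p 0.0931). With 15 single arrays and 10 residual degrees of freedom, no call does not show that a gene is not periodic. In cdc28-4 the best period lay at the edge of the range searched, 160 min, so that no period was found there. At that setting 40 genes (0.734%) and PMT3 passed (limma adjusted p 0.0321), and PMT3 did not pass without course 1 (0.852) or without course 2 (0.161).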

How the data were processed

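The 48 Affymetrix Yeast Genome 2.0 arrays were read as the linear intensity values that the authors deposited, made with the R package affy per the submitters' processing notes; the sources used here give neither its version nor the background and normalization method. Values were taken to log2 with no constant added. Of 10928 probe sets, 5498 name 1 S. cerevisiae gene, and for the 47 genes with several the probe set of highest mean was kept, which left 5449 genes. Samples were grouped by strain and time from their labels. limma 3.58.1 in R 4.3.3 fitted a mean for each of 33 groups, 15 with 2 arrays and 18 with 1. The 15 residual degrees of freedom all come from the cdc28-4 pairs, and single arrays were assumed to vary like them. Tests were two-sided with Benjamini-Hochberg adjustment over 5449 genes, and the fits were tested on simulated data. Tables and figures were made with Python 3.11.15, pandas 2.3.3 and matplotlib 3.10.9.

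The replicate number is the course, so it pairs the samples: deviations of the courses correlated over 105 pairs of times with a median r of 0.468 (0.00514 to 0.898), 97 of them over 0.1. Named genes are all 32 members. Array values are given for many, but not all, of the 4 largest rises and 4 largest falls called in each contrast. The same holds for up to 8 genes called in an interaction test. Other pathway genes have at most 2 rises and 2 falls each. VRG4 was named after its value was seen. The members and lists were chosen with earlier results of these data known, and the comparison of windows was added after the profiles were seen. Alternatives were median, quantile and fission yeast centring, other times, the course as a block and each array left out.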

Additional observations from a re-analysis of the deposited data

Results flagged for a closer look

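For 10 of the 32 genes the change over 30, 90, 150 and 210 min differed between cdc28-4 and wild type by the test of the interaction itself. Their limma adjusted p was 3.41e-07 for PSA1, 2.68e-05 for PMT3, 3.30e-05 for DPM1, 5.97e-05 for MNN1, 0.000680 for PMI40, 0.00101 for OCH1, 0.00181 for YUR1, 0.00200 for MNN4, 0.0169 for PMT2 and 0.0294 for KTR1. The share, 31.2%, was near the 33.8% of all genes. Labelling kit and strain cannot be told apart in the levels, and a constant offset between them cancels in these changes. An effect of the kit on the size of changes does not cancel, and it cannot be told apart from strain.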

How the results depend on the processing

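Each wild-type time is 1 array, and the spread is that of the cdc28-4 pairs. Counts that moved by over 1.5 times and signs that turned are given here; the cause was not tested. Over all alternatives, single members' calls were lost and gained 9 and 11 times in 384 values early, 17 and 11 in 512 late, 11 and 7 in 1216 for the time effect, 6 and 19 in 480 for the interaction, 15 and 18 in 480 for the change from 30 to 90 min and 31 and 8 in 832 for the windows. Not counted there are values whose sign turned, 2 early and 9 for the change from 30 to 90 min. Those members lost their original call as well. With the course as a replicate block, 18 members passed the interaction test (56.2%, with 50.3% of all genes), against 10 without it (31.2%, with 33.8%). Early, 5 members were lower after quantile normalization and 5 as 90 and 110 min minus 10 and 30 min, which also turned PMI40 (0.042) and KTR6 (−0.048). Late, 3 were lower at 290 minus 90 min alone. For the strain difference from 30 to 90 min, 30 to 150 min gave 1 member higher and 4 lower and turned PMT3 (0.013) and MNN1 (0.18). There, 90 to 150 min gave 134 genes, with 2 members higher and 0 lower, and turned PMI40 (0.37), DPM1 (0.063), PMT3 (0.65), KTR3 (0.26), MNN1 (0.93), MNN10 (0.24) and MNN4 (0.48). That is a different interval, in which the 90 min arrays count with the opposite sign, so these turns are partly built in. Replacing the wild-type 90 or 30 min array by its neighbours gave 1 member higher each (KTR4 and YUR1), and leaving out 1 array gave 0 to 1. Over the windows, 210 minus 90 min alone called 1345 genes, with 0 members lower. Wild-type periodicity called 3 genes, but 0 after median centring, 1 after quantile normalization, 6 centred on fission yeast, 0 and 7 with a period 10 min shorter and longer, 54 from 45 min on, 0 with a linear trend only and 0 to 8 without 1 array. In cdc28-4 it called 40 genes, but 23 after median centring, 5 centred on fission yeast, 3 and 793 with a period 10 min shorter and longer, 1021 from 45 min on, 0 with a linear trend only and 0 to 1 without 1 course. Its member count of 1 was 0, 0, 5, 5 and 0 under fission yeast centring, the shorter and longer period, the later times and the linear trend, and 0 without either course.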
